A study of Mus musculus with 25 samples.

Results

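The autosomal peaks of H3K9me3 and H3K27me3, a pair of histone marks of silenced chromatin, were compared in wild-type regenerating myofibers of the mouse. The comparison used the 3 wild-type peak lists of each mark, which are 6 of the 24 lists in the series, and only peaks on chromosomes 1 to 19, which are 17445 of 55242 peaks. Per the labels, the animals of both groups carried a mito-Dendra2 reporter under a Pax7-Cre(ERT2) driver, which acts in muscle stem cells, so that fluorescence marks their progeny. Tamoxifen at 75 mg/kg was given daily for 5 days, and 50 µL of 1.2% BaCl2 was injected into the tibialis anterior 2 days later. Regenerating Dendra2+ myofibers were taken 14 days after the injury (14 dpi). No allele other than these was given for the wild-type animals. The tissue was minced, fixed for 10 minutes in 1% formaldehyde, sheared to about 500 bp and precipitated with an antibody to either mark. Coordinates are those of the lists, on mouse build mm10. The lists hold no read totals, so sequencing depth is unknown and a difference in peak number is a difference in what was called.

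The sex chromosomes were left out because the lists of the 2 marks differed there in a way that no label accounts for. The X chromosome held 24.1%, 23.7% and 25.2% of all peaks in H3K9me3 replicates 1, 2 and 3, and 0.344%, 0.290% and 0.146% in those of H3K27me3. The sex of the animals is not labelled, and the labels do not say whether the lists of the 2 marks came from the same animals. No result below uses X or Y.

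H3K9me3 is written by SUV39H and SETDB1 enzymes and is the mark of constitutive heterochromatin, where HP1 proteins bind it. Away from satellite repeats it is brought to retrotransposons and to zinc finger gene clusters, in large part by KRAB zinc finger proteins acting through KAP1 and SETDB1. H3K27me3 is written by the EZH2 or EZH1 subunit of Polycomb repressive complex 2 (PRC2), which is drawn to CpG-rich promoters, and it covers developmental regulators that a cell type does not use.

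Promoter sequence under the peaks differed between the marks in CpG content, the feature by which PRC2 targets are usually described. For each mark, the first 2 genes of the ranking of mark-exclusive genes (below) whose RefSeq promoter window lay under a peak in all 3 lists are shown. Each sequence is the 250 bases before the gene start on the plus strand of GRCm38.p6, the RefSeq name of the mm10 assembly, with every CG in capitals.
Zfp985, H3K9me3, chr4:147553027-147553276: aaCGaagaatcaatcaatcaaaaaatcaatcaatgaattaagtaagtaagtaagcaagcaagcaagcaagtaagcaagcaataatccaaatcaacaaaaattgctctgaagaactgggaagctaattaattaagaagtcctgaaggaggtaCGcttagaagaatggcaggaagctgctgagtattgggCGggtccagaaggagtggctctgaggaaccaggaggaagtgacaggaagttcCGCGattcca
Sp140, H3K9me3, chr1:85600453-85600702: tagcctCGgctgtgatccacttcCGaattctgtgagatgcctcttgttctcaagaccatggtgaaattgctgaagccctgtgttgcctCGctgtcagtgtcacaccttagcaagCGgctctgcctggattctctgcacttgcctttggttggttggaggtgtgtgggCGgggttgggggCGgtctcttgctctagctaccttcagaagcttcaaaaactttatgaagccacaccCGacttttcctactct
Sp8, H3K27me3, chr12:118846079-118846328: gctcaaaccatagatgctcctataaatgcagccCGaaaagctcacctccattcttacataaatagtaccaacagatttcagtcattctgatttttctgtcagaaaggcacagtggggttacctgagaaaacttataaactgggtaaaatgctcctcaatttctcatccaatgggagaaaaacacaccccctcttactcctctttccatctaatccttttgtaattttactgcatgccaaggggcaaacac
Foxd1, H3K27me3, chr13:98353995-98354244: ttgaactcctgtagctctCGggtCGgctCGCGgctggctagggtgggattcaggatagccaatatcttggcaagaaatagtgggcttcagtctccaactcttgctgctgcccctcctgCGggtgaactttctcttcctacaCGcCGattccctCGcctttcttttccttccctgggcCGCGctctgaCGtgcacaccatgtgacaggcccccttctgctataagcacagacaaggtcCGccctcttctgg
Zfp985, a zinc finger gene of the distal chromosome 4 cluster, had 5 CG in these bases and Sp140, which encodes a nuclear body protein of leukocytes, had 7. Foxd1, a forkhead factor of kidney stroma and retina, had 12, whereas Sp8, a limb and forebrain factor, had 1. Over the whole 300-base windows, which reach 50 bases past the start, the median was 3 CpG in the windows under H3K9me3 peaks in each list (36, 29 and 33 windows). It was 15, 16 and 14 in the windows under H3K27me3 peaks (412, 333 and 301 windows). The median over all 31396 windows was 7. In the windows under a peak in all 3 lists, from which the sequences shown were taken, it was 6 for H3K9me3 (13 windows) and 14.5 for H3K27me3 (38 windows). The whole windows of the genes shown had 6 (Zfp985), 7 (Sp140), 2 (Sp8) and 15 (Foxd1), so only Sp8 lay far from the median of its mark. Windows with 20 or more CpG made up 27.04% of all windows, 35.9%, 39.6% and 37.2% of those under H3K27me3 peaks, and 0%, 0% and 3.03% of those under H3K9me3 peaks. CpG content also varied with gene class. Of all 248 windows of lineage transcription factor genes, under a peak or not, 43.5% had 20 or more CpG, as did 32.5% of all 467 windows of Zfp genes. Zfp genes took 13.1% to 14.4% of H3K9me3 peaks, but only 19.3% of those peaks lay at promoters. Of the 13 windows under H3K9me3 in all 3 lists, 1 was of a Zfp gene, with 6 CpG. Of the 38 windows under H3K27me3 in all 3 lists, the 10 of lineage factors had a median of 22.5 and the 28 of other genes 9.5. The part of gene class in the CpG difference between marks was not tested.

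Of 919 autosomal RefSeq microRNA hairpins, 6 (0.653%) lay within 1 kb of a peak in all 3 H3K27me3 lists and 0 of H3K9me3, and 21 and 1 lay so near a peak in any list. The share of all gene symbols with an H3K27me3 peak in all 3 lists was 1.60%. That share counts peaks assigned to a gene at any distance, so it is not a like measure. Whether microRNAs as a class differ from other genes was not tested. The 6 hairpins sit at 3 loci and include 2 of the 3 loci of miR-9, a microRNA of neural progenitors, and the mature sequences are shown with the seed, bases 2 to 8, in capitals.
mmu-miR-9-5p, Mir9-1 at chr3:88215613-88215635 and Mir9-2 at chr13:83738821-83738843, both plus strand: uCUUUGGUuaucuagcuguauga
mmu-miR-9-3p, Mir9-1 at chr3:88215652-88215673 and Mir9-2 at chr13:83738858-83738879, both plus strand: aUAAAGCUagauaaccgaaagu
mmu-miR-3093-5p, Mir3093 at chr3:88215186-88215207, plus strand: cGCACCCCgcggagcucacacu
mmu-miR-6402, Mir6402 at chr4:91373285-91373307, minus strand: gAGCAGUUuucccaggaacccgc
Mir9-1 and Mir9-2 give identical mature forms and therefore share both seeds, and Mir3093 lies just upstream of Mir9-1. The remaining 2 hairpins, Gm25641 and Gm51268, lie on the other strand of Mir9-1 and Mir9-2, and peaks carry no strand. Mir9-3 had a nearby H3K27me3 peak in 1 list. Mir10a and Mir10b, which lie inside the Hoxb and Hoxd clusters, also had one in 1 list each.

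H3K27me3 lists held more autosomal peaks. H3K9me3 replicates 1, 2 and 3 held 2176, 2407 and 2239 peaks, and those of H3K27me3 held 3763, 3433 and 3427. The groups did not overlap, with a ratio of means of 1.56 for H3K27me3 over H3K9me3. Covered length was 1.96, 2.22 and 2.03 Mb for H3K9me3 and 3.51, 3.06 and 3.01 Mb for H3K27me3, a ratio of 1.54. Each of these differences had an exact two-sided permutation p of 0.1, the smallest that 3 lists against 3 can give, so that no comparison within the wild-type lists could pass 0.05. The deposited score of a peak, which is −log10 p multiplied by 10, had similar medians of 62.2 ± 0.357 for H3K9me3 and 62.8 ± 0.821 for H3K27me3 (SD, n = 3 lists each, exact p = 0.3). The share of peaks with a score of 100 or more was 11.6% ± 0.333 against 16.8% ± 1.05 (exact p = 0.1). In bulk chromatin a mark in a subset of nuclei and a weaker mark in every nucleus cannot be told apart.

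Peak width set the marks apart at the upper end. Median widths were 596, 600 and 598 bp for H3K9me3 and 779, 755 and 739 bp for H3K27me3, without overlap. The 90th percentiles overlapped, at 1436, 1340 and 1393 bp against 1472, 1384 and 1359 bp (exact p = 0.7). Beyond them the order turned. The widest H3K9me3 peaks measured 19655, 31076 and 23724 bp, and the widest H3K27me3 peaks 5238, 5507 and 7040 bp. Peaks of 3 kb or more were 3.22%, 2.74% and 2.72% of H3K9me3 lists and 0.824%, 0.466% and 0.525% of H3K27me3 lists, a ratio of 4.78. These few peaks held between 19.5% and 21.0% of the bases covered by H3K9me3 in each list and 3.26%, 2.02% and 2.30% of those covered by H3K27me3 (exact p = 0.1). Both width results depended on how a peak is defined. Among peaks with a score of 100 or more, the median width was higher for H3K9me3 (1534 against 1427 bp, exact p = 0.2), and with peaks within 1000 bp joined, peaks of 3 kb or more were more frequent for H3K27me3 (5.84% against 4.63%, exact p = 0.1).

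**Figure D1:**
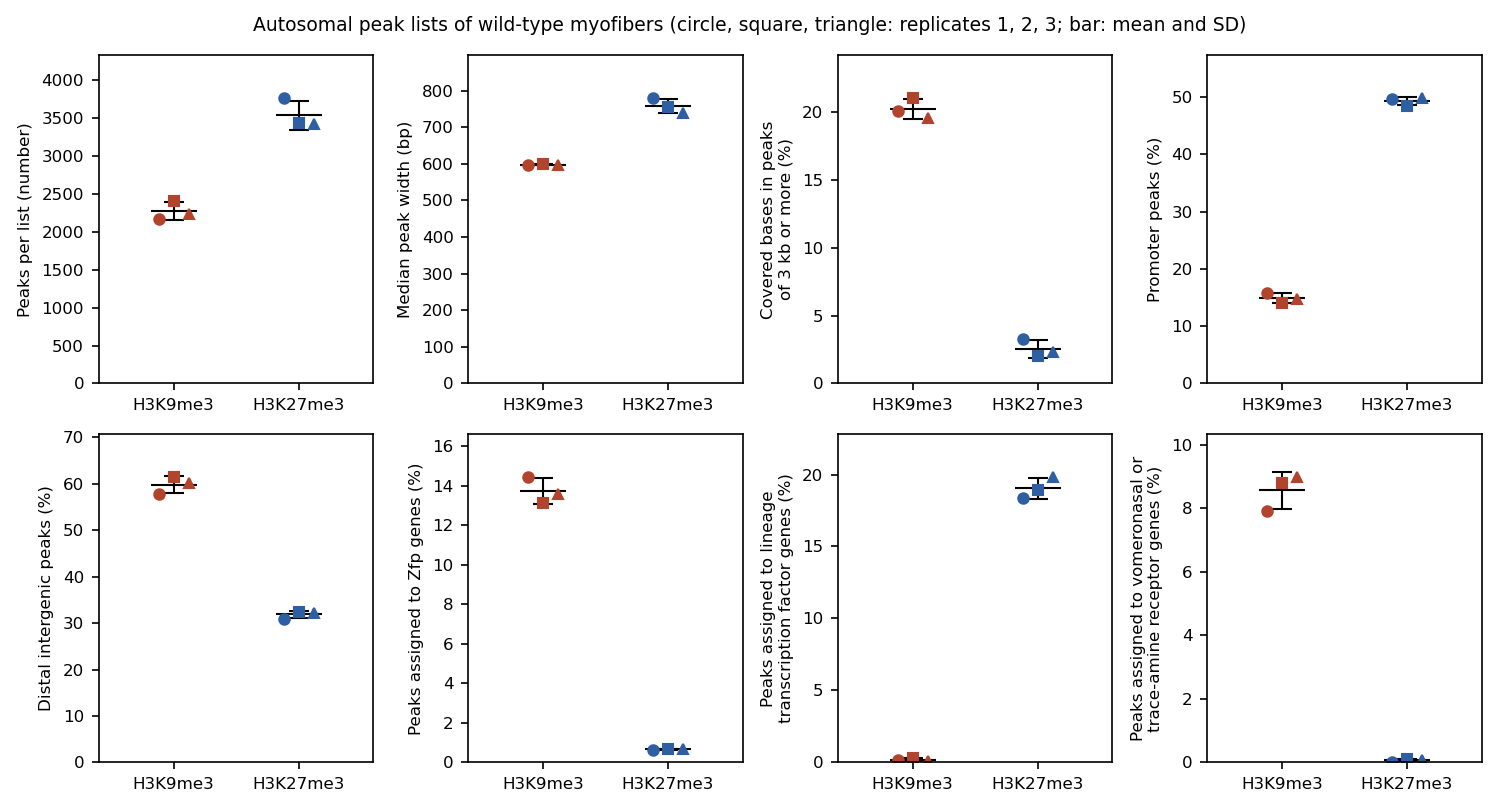
Values of each wild-type peak list on autosomes for 8 measures, each on an axis from 0, with H3K9me3 in red and H3K27me3 in blue. Points are the 3 replicates of a mark and bars the mean and SD. The groups do not overlap in any panel, with promoter shares of 14.1% to 15.8% for H3K9me3 and 48.5% to 49.8% for H3K27me3.

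To ask where peaks lie, the feature classes of the lists were compared, in which a promoter reaches 3 kb from a start site. Promoter peaks were 15.8%, 14.1% and 14.8% of H3K9me3 lists and 49.7%, 48.5% and 49.8% of H3K27me3 lists, a difference of -34.4 percentage points for H3K9me3 minus H3K27me3. The innermost promoter class, which reaches 1 kb, made up 6.91% ± 0.474 and 28.1% ± 1.46 (SD, n = 3 lists each). Distal intergenic peaks were 57.9%, 61.4% and 60.2% against 31.0%, 32.4% and 32.2%. Intron peaks were 19.8%, 18.6% and 18.7% against 14.4%, 14.7% and 13.4%, and exon peaks were 3.37% ± 0.258 against 2.30% ± 0.229. None of these groups overlapped, and each difference had the exact p of 0.1.

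The position of peaks around RefSeq gene starts gave the same order with an independent annotation. The median distance from a peak's centre to the nearest of the starts in the promoter table was 28.1, 29.9 and 26.8 kb for H3K9me3 and 6.52, 6.86 and 6.37 kb for H3K27me3. Within 10 kb of a start lay 19.9% ± 0.902 of H3K9me3 and 59.3% ± 0.624 of H3K27me3 peaks, and over 100 kb away lay 20.9% ± 1.02 and 8.13% ± 0.227 (SD, n = 3 lists each, exact p = 0.1 for both). H3K27me3 covered 0.902% ± 0.0929 of the starts at 0.5 kb upstream and 0.911% ± 0.129 at 1.5 kb downstream, and coverage fell to 0.300% ± 0.0435 at 10 kb upstream. At the start itself it was 0.810% ± 0.133. In each list this was below the values at 0.5 kb upstream and downstream. The starts covered were 302 against 317 and 317, 236 against 266 and 276, and 225 against 267 and 247 in replicates 1, 2 and 3. This drop was not tested. H3K9me3 showed no rise around starts, with 0.0849% ± 0.00663 at the start and 0.0828% ± 0.00552 at 10 kb upstream. The classes of the lists rest on another set of transcripts. Of the peaks they place up to 1 kb from a start, 63.6% ± 1.14 of those of H3K27me3 but 22.9% ± 0.987 of those of H3K9me3 had their centre within 2 kb of a start in the RefSeq table. With any part of the peak counted, a measure added after the data were seen, these were 66.4% ± 0.648 and 26.8% ± 1.79.

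**Figure D2:**
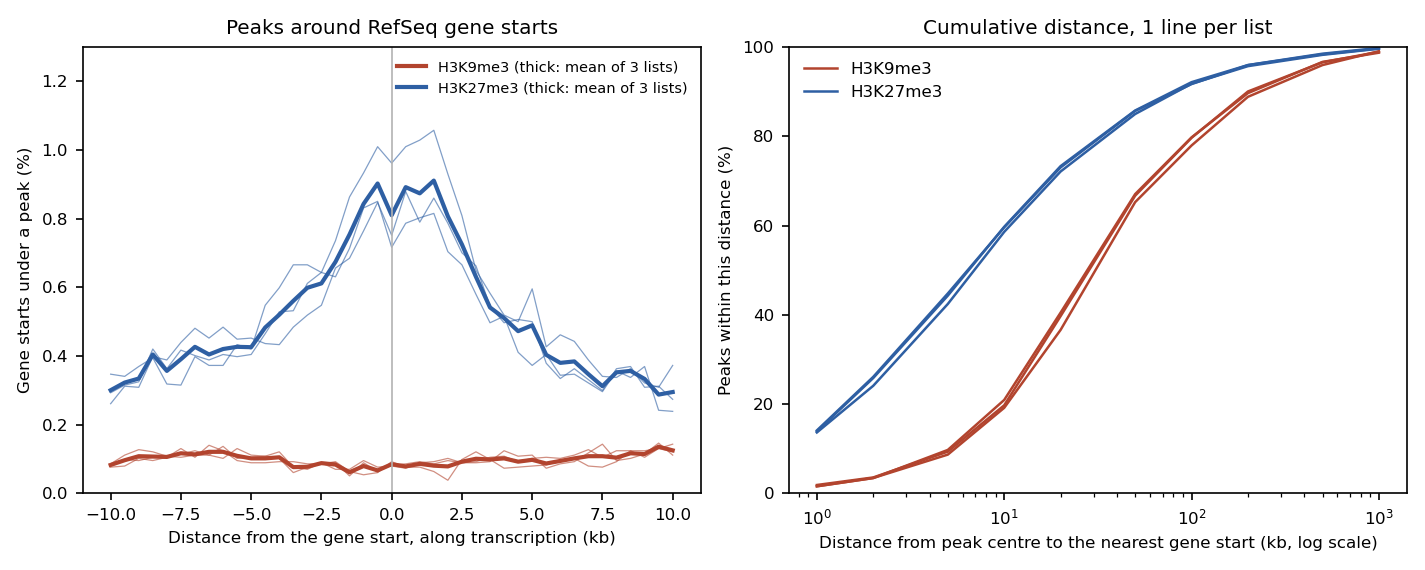
Left, the share of 31396 RefSeq gene starts under a peak (percent) at each distance from the start (kb, along transcription), thin lines for the 3 lists of a mark and thick lines for their mean. Right, the share of peaks (percent) within each distance of the nearest start (kb, log axis), 1 line per list. H3K27me3 in blue rises around the start to about 0.9%, and H3K9me3 in red has means between 0.0616% and 0.136%.

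The genes nearest to the peaks differed in kind as well. Of the peaks whose gene matched a RefSeq symbol (89.3% ± 0.336 for H3K9me3 and 93.7% ± 0.302 for H3K27me3), 20.6%, 20.9% and 20.2% of H3K9me3 peaks were assigned to pseudogenes, compared with 3.59%, 3.15% and 2.84% of H3K27me3 peaks. Long noncoding RNA genes took 4.64% ± 0.237 of H3K9me3 and 12.7% ± 0.252 of H3K27me3 peaks. Protein-coding genes took 69.9% ± 0.613 and 81.4% ± 0.169 (SD, n = 3 lists each, exact p = 0.1 for all 3 classes).

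The share of peaks on most chromosomes differed between the marks. In the H3K9me3 lists chromosome 7 took 15.4%, 16.8% and 17.7% of the peaks, and in the H3K27me3 lists 5.34%, 5.24% and 5.19%. Chromosome 4 took 12.4% ± 0.488 against 6.39% ± 0.299, chromosome 5 took 10.4% ± 0.388 against 7.76% ± 0.234, and chromosome 17 took 8.41% ± 0.301 against 3.86% ± 0.0986 (SD, n = 3 lists each). In reverse, chromosome 2 took 3.64% ± 0.342 of H3K9me3 and 11.2% ± 0.419 of H3K27me3 peaks, chromosome 11 took 1.82% ± 0.183 and 7.26% ± 0.607, and chromosome 19 took 1.35% ± 0.179 and 4.26% ± 0.248. In all, 6 of 19 chromosomes (1, 4, 5, 7, 12 and 17; 31.6%) had a larger share in every H3K9me3 list than in any H3K27me3 list, and 11 (57.9%) the reverse. Chromosomes 16 and 18 overlapped, with exact p of 0.8 and 0.6. Such a share can rest on few places. Of 283, 292 and 273 H3K9me3 peaks on chromosome 4, the megabase at 145 Mb held 75, 84 and 80. The megabase at 147 Mb held 86, 72 and 79. Of 184, 174 and 156 on chromosome 1, the megabase at 85 Mb held 81, 73 and 65. Shares without these megabases were not computed. Among peaks with a score of 100 or more, chromosome 5 held 7.08% against 6.99% (exact p = 1), the difference on chromosome 7 was 2.78 instead of 11.4 points and that on chromosome 4 was 23.4 instead of 6.05 points. Peak density varied 7.74-fold over chromosomes for H3K9me3, from 0.337 to 2.61 peaks per Mb, and 3.58-fold for H3K27me3, from 0.686 to 2.46.

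**Figure D3:**
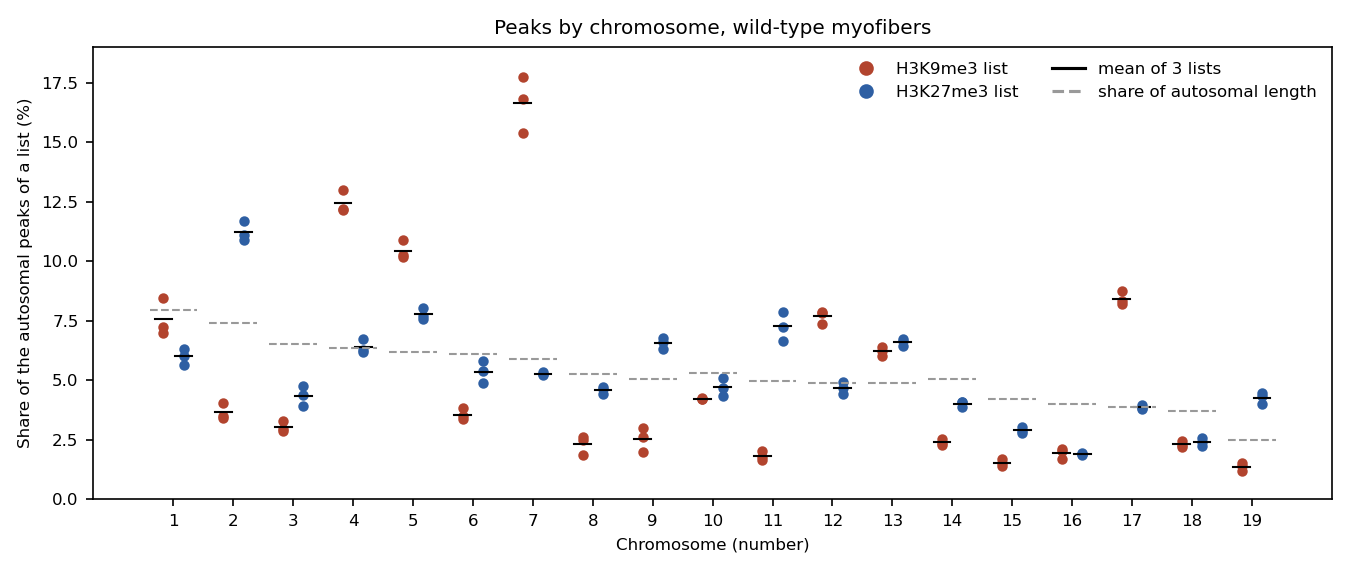
Share of the autosomal peaks of each wild-type list (percent) on each chromosome, points for the lists (H3K9me3 red, H3K27me3 blue), black bars for the mean of 3 lists and dashed lines for the share of autosomal length up to the last RefSeq gene. Chromosome 7 holds 15.4% to 17.7% of H3K9me3 peaks and chromosome 2 holds 10.9% to 11.7% of H3K27me3 peaks.

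H3K9me3 was concentrated in few megabases and scattered over many. The smallest set of 1-Mb windows that holds 50% of a list counted 52, 60 and 51 windows for H3K9me3 and 177, 174 and 162 for H3K27me3. The 10 fullest windows of each list held 21.9% ± 1.23 and 7.22% ± 0.114 of the peaks (SD, n = 3 lists each, exact p = 0.1). Windows with a single peak nonetheless made up 63.0%, 60.1% and 65.2% of the occupied windows for H3K9me3 and 41.0%, 43.9% and 44.7% for H3K27me3. Over short distances H3K27me3 peaks were the more crowded: 60.5%, 57.7% and 59.4% had another peak of the list within 10 kb, against 46.0%, 43.7% and 45.6% of H3K9me3 peaks. Of 286 windows with a peak in all 3 H3K9me3 lists and 680 in all 3 H3K27me3 lists, 71 were in both sets, which is 24.8% of the first and 10.4% of the second.

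On distal chromosome 4, the window from 145 to 146 Mb held 75, 84 and 80 peaks in replicates 1, 2 and 3, led by the zinc finger genes Zfp986 and Zfp990, and that from 147 to 148 Mb held 86, 72 and 79, led by Zfp979, Zfp534, Zfp985, Gm20707 and Zfp984. H3K27me3 lists had 1 peak and 0 peaks in all 3 lists together there. The window from 85 to 86 Mb of chromosome 1, around Sp140 and its relatives, held 81, 73 and 65. On chromosome 7 the windows starting at 20, 21 and 22 Mb, which hold vomeronasal type 1 receptor genes such as Vmn1r243 and Vmn1r160, had 37 to 45, 21 to 25 and 40 to 55 peaks, and the window at 15 Mb with the oocyte homeobox genes Obox1 and Obox3 had 35, 39 and 38. The windows at 94 and 95 Mb of chromosome 5, which hold Pramel genes, known from germ cells, had 49, 39 and 34 and 24, 29 and 42 peaks. Over the 3 lists, most peaks were assigned to Gm6205 (28) in the first and to Pramel47 (19) in the second. The Smok2a and Tcp10c window of proximal chromosome 17, at 13 Mb in the t-complex region, had 36, 29 and 47. The windows at 104 Mb of chromosome 5 and 18 Mb of chromosome 12, led by Thoc2l and 5730507C01Rik, had 20, 34 and 23 and 25, 28 and 18. In the 12 fullest H3K9me3 windows, no H3K27me3 list had more than 1 peak.

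Among the fullest H3K27me3 windows, the window from 96 to 97 Mb of chromosome 11, with the Hoxb cluster, had 53, 58 and 48 peaks, many of them assigned to the neighbouring Skap1 and to Igf2bp1. The Hoxd and Evx2 window at 74 Mb of chromosome 2 had 25, 23 and 25. Windows of Zic1 and Zic4 (chromosome 9, 91 Mb), of Nkx2-2, Nkx2-4 and Pax1 (chromosome 2, 147 Mb), of Nkx2-1 and Pax9 (chromosome 12, 56 Mb), of Gata4 (chromosome 14, 63 Mb) and of Pax6 and Wt1 (chromosome 2, 105 Mb) had 11 to 26 in each list. They are genes of brain, spinal cord, endoderm, heart or kidney development. The exception among the first 3 was the window at 36 Mb of chromosome 17, in the major histocompatibility complex, with 27, 17 and 20 peaks assigned to class I genes such as H2-Bl and to predicted genes.

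Genes with a peak in every list of a mark and in no list of the other numbered 358 for H3K9me3 and 686 for H3K27me3, which is 6.36% and 12.2% of the 5625 genes with a peak in any list. A peak counts for the gene to which the lists assign it, which for intergenic peaks is a neighbour. By the rank of their strongest peak within the lists, the first 10 H3K9me3 genes (predicted Gm and Rik genes aside) included Ly6c2, Zfp979, Zfp985, Zfp534, Zfp987, Zfp982, Zfp984, Znf41-ps and Pisd-ps1. The 6 Zfp genes and the pseudogene Znf41-ps lie on chromosome 4. Zfp979 had 15, 13 and 19 peaks in replicates 1, 2 and 3, which covered 39768, 42596 and 41315 bp, and its strongest peak scored 733, 944 and 877. Zfp985 had 10, 9 and 14 peaks over 36666, 32870 and 34555 bp. Zfp534 had 18, 14 and 11 peaks over 21771, 22366 and 16791 bp, with the strongest at a promoter between positions 147672049 and 147676348. Zfp534 ranked 7, 19 and 16 by score and Zfp979 ranked 13, 8 and 9, so the order among them lies within the spread of the lists.

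Some of the highest H3K9me3 scores came from short intervals away from these clusters. The Ly6c2 peak, at chromosome 15, was intergenic, ranked 5, 9 and 6, and ran from 75085370 to 75087174, from 75085369 to 75087515 and from 75085370 to 75087175 in the 3 lists, so its left edge moved by 1 bp. The strongest H3K9me3 peak of all 3 lists was assigned to 9230019H11Rik, near the start of chromosome 10, with scores of 2851, 2962 and 2858 and 7264, 7470 and 7278 bp covered. Peaks near the chromosome 2 predicted genes Gm10800 and Gm10801 ranked 2 and 3 in each list. No list of regions with anomalous signal was used here, and the wild-type input was not analysed here, so the part of mappability in these loci was not tested.

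Among H3K27me3 genes, the first 10 were Myh8, Gusb, Igf2bp3, Nkx2-4, Plag1, Sim1, Foxa1, Pom121l2, Sp8 and Hoxc13. Myh8, the neonatal myosin heavy chain gene, held the strongest peak of each list, at the highest score that the lists contain, 3100, and peaks covered 4692, 3354 and 4792 bp of it. Gusb, which encodes lysosomal beta-glucuronidase, followed at rank 2 in each list with a single exonic peak of 2543, 2465 and 2298 bp. Igf2bp3, an oncofetal RNA-binding protein gene, had 6, 5 and 5 peaks over 14051, 13134 and 12689 bp, and Plag1, a zinc finger gene of fetal growth, had 4, 3 and 4 over 5498, 5782 and 6178 bp. The patterning genes Nkx2-4, Sim1, Foxa1, Sp8 and Hoxc13 each had several peaks a list. Hoxc13, a factor of hair and nails at the end of the Hoxc cluster, had 13, 10 and 13 peaks over 15984, 12051 and 15520 bp. The ranks of the strongest peak of Sp8 were 96, 10 and 20, and those of Pom121l2 8, 17 and 74, so that ranks below the first 2 varied widely between replicates.

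Regions with peaks of one mark only differed in length at the upper end. Of 12830 merged regions, 269 (2.10%) had a peak in all 3 H3K9me3 and no H3K27me3 list, and 609 (4.75%) the reverse, with median lengths of 2086 and 2369 bp. The 90th percentile of length was 7996 bp for H3K9me3 and 4417 bp for H3K27me3, and the longest regions were 36548 and 9994 bp. The longest H3K9me3 region, chr1:85230620-85267167 at C130026I21Rik, had 12522, 35025 and 36165 bp covered in replicates 1, 2 and 3, so replicate 1 covered much less of it. It was followed by chr4:147505762-147536314 at Zfp982 and by chr1:85304012-85333687 at Gm2619 and chr1:85084162-85106705 at A530032D15Rik, both in the Sp140 window. The fifth, chr11:3180533-3200472 at Gm12735, was a single peak of 19655, 19637 and 19915 bp. The longest H3K27me3 region, chr9:55538744-55548737 at the motor neuron factor gene Isl2, had 9020, 6064 and 4270 bp covered. The next were at Igf2bp3 (chr6:49214719-49224449), Foxa1 (chr12:57535206-57544264) and Sox21 (chr14:118230306-118239123). Peaks in the exclusive regions scored higher than the other peaks of their mark, with medians of 92.5 against 60.7 for H3K9me3 and 88.6 against 59.6 for H3K27me3. Presence in all 3 lists, which is part of the definition, itself favours strong peaks (below). The score difference therefore says nothing about exclusiveness.

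Peaks assigned to lineage transcription factor genes lay almost wholly in the H3K27me3 lists. Hox, other homeobox, Sox, T-box, Gata, Fox, Zic, Sall and bHLH genes together took 18.4%, 18.9% and 19.8% of H3K27me3 peaks (692, 649 and 679 peaks) and 0.138%, 0.291% and 0.0893% of H3K9me3 peaks (3, 7 and 2 peaks). Of 130 homeobox and Pax genes outside the Hox clusters, 85 (65.4%) had a peak in all 3 H3K27me3 lists and 0 in all 3 H3K9me3 lists. Over all 47494 autosomal symbols in RefSeq or the lists these shares were 1.60% and 0.849%. Evx2, the homeobox gene beside the Hoxd cluster, had 10, 5 and 8 peaks over 13854, 10798 and 13616 bp, and Lhx9, a LIM-homeobox factor of limb and gonad, had 5, 5 and 7. Of 88 Sox, T-box, Gata, Fox, Zic and Sall genes 36 (40.9%) had a peak in all 3 H3K27me3 lists, among them Gata4, a cardiac and endodermal factor, with 16, 9 and 12 peaks. Of 54 bHLH factors 20 (37.0%) did, led by Sim1, a hypothalamic factor, with 6, 8 and 8 peaks, and by the proneural genes Neurog2 with 6, 8 and 7 and Atoh1 with 4, 2 and 5. No H3K9me3 list had a bHLH or a Hox gene.

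Of 39 Hox genes, 17 were assigned an H3K27me3 peak in any list and 12 (30.8%) in all 3, with 41, 37 and 38 peaks. The 5 highest by rank were Hoxc13, Hoxd13, Hoxb13, Hoxd12 and Hoxa13, all of the most posterior groups. Hoxd13 had 2, 3 and 2 peaks over 3108, 5790 and 3663 bp. In the Hoxb window 45 peaks of the 3 lists were assigned to the neighbouring Skap1, so the count of Hox genes is not a count of marked clusters.

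Over all symbols, 5.31% had an H3K9me3 peak and 7.32% an H3K27me3 peak in any list, and 21.9% of the latter had one in all 3. Of 65 Wnt, Fgf, Bmp, Gdf and hedgehog ligand genes, 34 had an H3K27me3 peak in any list and 12 (18.5%) in all 3, such as Wnt1, a midbrain organizer ligand, with 3, 2 and 3 peaks. The counts were 43 (44.8%) and 9 of 96 potassium channel genes and 44 (46.8%) and 9 of 94 neurotransmitter receptor genes. An H3K9me3 peak in any list was assigned to 8 potassium channel genes (8.33%) and 11 receptor genes (11.7%). The channel gene Kcnh5 and the glutamate receptor genes Grm8 and Gria4 had one in all 3, which is 1.04% of the channel and 2.13% of the receptor genes, against 0.849% of all symbols. Those 3 genes also had H3K27me3 peaks in 1 or 2 lists, and none of the H3K9me3 peaks of either gene list lay at a promoter, whereas 68.7% and 65.5% of the H3K27me3 peaks did.

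Genes named Zfp took 14.4%, 13.1% and 13.6% of H3K9me3 peaks (314, 316 and 304 peaks) and 0.638%, 0.699% and 0.671% of H3K27me3 peaks (24, 24 and 23 peaks). Of 464 such genes 57 (12.3%) had a peak in all 3 H3K9me3 lists and 1 in all 3 H3K27me3 lists. That gene was Zfp618, whose H3K27me3 peaks lay at the promoter in replicates 1 and 3. Without chromosome 4, an alternative chosen after the data were seen, the Zfp share was 10.3% against 0.655%. Vomeronasal and trace-amine receptor genes took 7.90%, 8.81% and 8.98% of H3K9me3 peaks (172, 212 and 201 peaks) and 0.0266%, 0.117% and 0.0875% of H3K27me3 peaks (1, 4 and 3 peaks). Of 638 such genes 42 (6.58%) had a peak in all 3 H3K9me3 lists and 0 in all 3 H3K27me3 lists. Chromosome 7 carried most of them, since without it the share was 2.14% against 0.0811%. Olfactory receptor genes, the larger chemoreceptor family, did not follow: 3 and 1 of 1419 (0.211% and 0.0705%) had a peak in all 3 lists of a mark, below the 0.849% and 1.60% of all symbols. Predicted genes named Gm or Rik took 36.1% ± 0.244 of H3K9me3 and 17.8% ± 0.485 of H3K27me3 peaks (SD, n = 3 lists each, exact p = 0.1). Of 22758 such genes, 149 (0.655%) and 134 (0.589%) had a peak in all 3 lists, also below the shares of all symbols. Of 354 ribosomal protein genes and pseudogenes 1 (0.282%) had a peak in all 3 lists of either mark.

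**Figure D4:**
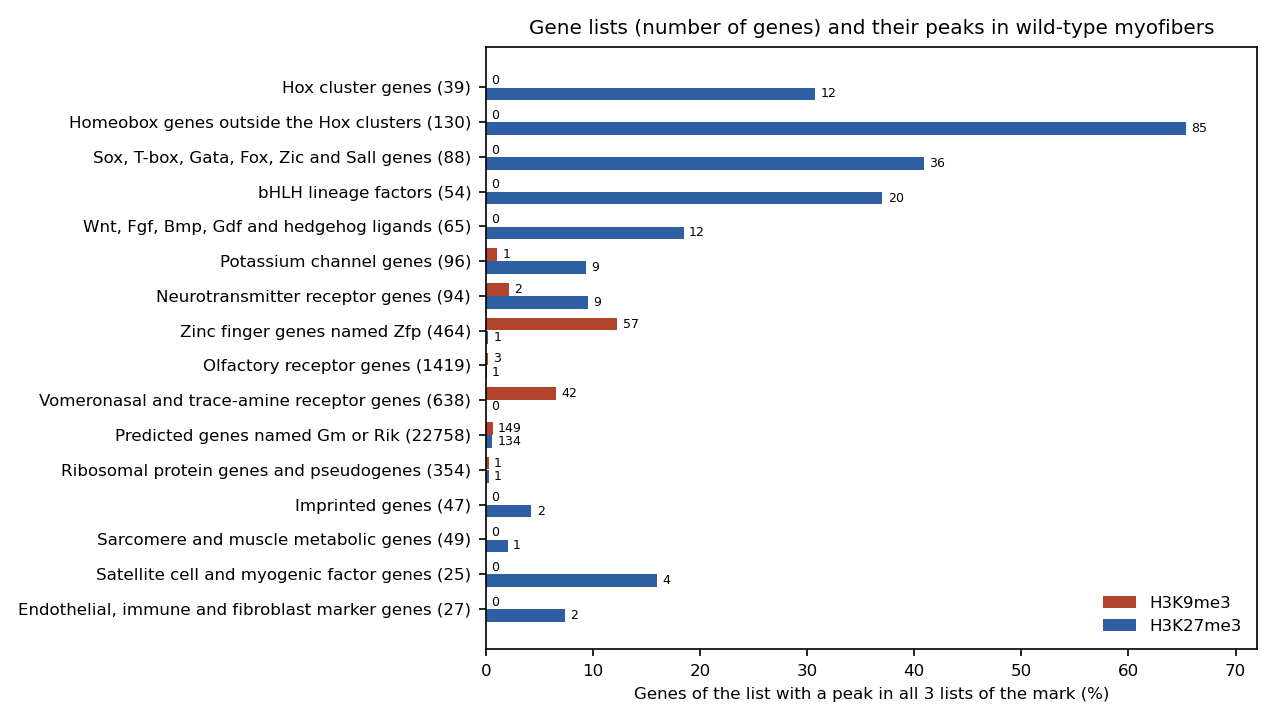
Share of the genes of each list (percent, number of genes in parentheses) with a peak in all 3 wild-type lists of H3K9me3 (red) or H3K27me3 (blue), with the number of such genes at the end of each bar. Blue bars lead in the developmental lists, up to 65.4% for homeobox genes, and red bars in the Zfp (12.3%) and vomeronasal (6.58%) lists.

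Of 49 sarcomere and muscle metabolic genes, 0 had an H3K9me3 peak in any list and 1, Myh8, had an H3K27me3 peak. In all 3 H3K27me3 lists this was 2.04% of the genes, near the 1.60% of all symbols. Of 25 satellite cell and myogenic factor genes 4 (16%) had an H3K27me3 peak in all 3 lists, which were Pax3, Calcr, Eya1 and Eya2. Of these 4 genes, only 1 had no H3K9me3 peak in any list. An H3K9me3 peak in any list was assigned to 4 of the 25 genes (16%), against 5.31% of all symbols. In all 3 H3K9me3 lists it was 0 of the 25. Pax3, the paired-box factor of embryonic muscle progenitors, had 13, 15 and 12 peaks over 13293, 12009 and 12097 bp, and 0 in H3K9me3 lists. Pax7, which marks muscle stem cells, had 1, 3 and 0 H3K27me3 peaks, and Nfatc2, a calcium-responsive factor of myofiber growth, had 1, 0 and 0. Myod1, Myog, Hif1a, Mfn2 and Vhl had none of either mark. Of 27 endothelial, immune and fibroblast marker genes 2 (7.41%), Pdgfra and Flt1, had a peak in all 3 H3K27me3 lists and 0 in all 3 H3K9me3 lists. In any H3K9me3 list 1 of the 27 (3.70%) had one. Peaks of silencing marks do not measure expression, so they do not test the labelled tissue. Of 47 imprinted genes 2 (4.26%), Zdbf2 and Dio3, had a peak in all 3 H3K27me3 lists and 0 in all 3 H3K9me3 lists. In any list 9 (19.1%) had an H3K27me3 peak and 6 (12.8%) an H3K9me3 peak, against 7.32% and 5.31% of all symbols. With so few genes in these lists, the differences from all symbols were not tested.

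Few peaks of either mark overlapped a peak of the other. Of H3K9me3 peaks, 0.827%, 0.872% and 0.804% (18, 21 and 18 peaks) overlapped a peak of any wild-type H3K27me3 list, and 0.319%, 0.437% and 0.496% of H3K27me3 peaks (12, 15 and 17 peaks) overlapped an H3K9me3 peak. Widened by 5 kb on each side, 1.32% ± 0.139 and 0.869% ± 0.112 did (SD, n = 3 lists each). Of 12830 regions, 20 had a peak of both marks and 7 had one in all 6 lists. The Jaccard index, the bases shared over the bases in either list, was between 0.00138 and 0.00236 for the 9 pairs of unlike marks, and between 0.149 and 0.216 for the 6 pairs of replicates (within minus between marks 0.177, exact p = 0.1). Mean indices were 0.206 among H3K9me3 and 0.152 among H3K27me3 lists. Each list covered only 1.96 to 3.51 Mb, and the overlap expected from random placement of peaks was not computed. Whether the marks avoid each other was therefore not tested.

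**Figure D5:**
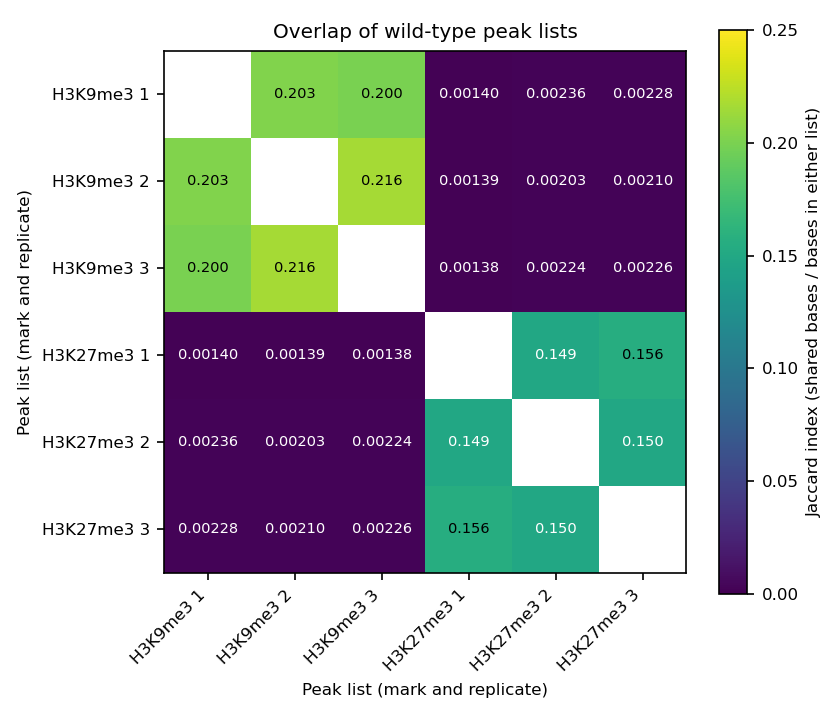
Jaccard index (shared bases over bases in either list, colour from 0 to 0.25) for each pair of wild-type lists, rows and columns in the order of the 3 H3K9me3 and 3 H3K27me3 replicates. The 2 blocks of replicates reach 0.149 to 0.216, and the 9 pairs of unlike marks stay at or below 0.00236.

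Replicates of either mark agreed mainly at their strong peaks. Of H3K9me3 peaks, 15.3% ± 0.691 overlapped a peak in both other replicates and 68.0% ± 1.23 in neither. Of H3K27me3 peaks these were 19.1% ± 0.989 and 53.4% ± 2.02 (SD, n = 3 lists each). Among the 10% of peaks with the highest score, 70.9% ± 0.892 of H3K9me3 and 63.6% ± 2.03 of H3K27me3 peaks were in both other replicates. Promoter peaks recurred more often than distal intergenic ones, at 31.1% ± 0.761 against 9.01% ± 0.550 for H3K9me3 and 24.2% ± 1.29 against 14.4% ± 0.568 for H3K27me3. Most single peaks of either mark were therefore seen in 1 list, which is why genes and regions are counted over all 3.

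The few regions of both marks were mostly strong in H3K9me3. Region chr9:35304750-35306050, assigned to Gm5614, scored 1509, 1483 and 1504 in the H3K9me3 lists and 205, 336 and 178 in the H3K27me3 lists. The H3K9me3 intervals began at 35305070, 35305078 and 35305070. Neither the input nor a list of anomalous regions was used for regions of both marks, so the part of mappability in them was not tested. At Chl1, a neural adhesion gene (chr6:103648902-103649800, intron 4 to exon 5), the scores were 872, 864 and 827 against 121, 119 and 112. At a promoter of Aida (chr1:183298692-183299806) they were 364, 400 and 515 against 70.3, 58.0 and 67.3. Near Gm10801 (chr2:98661882-98665399) they were 1876, 2700 and 1986 against 80.3, 273 and 199. The order was reversed at Tmem125 (chr4:118546819-118549130), with 81.7, 102 and 196 for H3K9me3 and 266 and 189 in 2 H3K27me3 lists, and at Gm21188 (chr13:120026777-120035699), with 68.9 and 70.3 in 2 H3K9me3 lists and 372, 174 and 205 for H3K27me3. Genes with both marks were more frequent than regions with both, since 374 genes had a peak of each mark in some list, 14.8% of the H3K9me3 and 10.8% of the H3K27me3 genes, and 10 had one in all 6 lists. The marks of such a gene therefore mostly lay at separate places.

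The other genotypes of the series carry the same comparison in independent libraries: 9 lists per mark from mfn2-/-, vhl-/- and HIF1dPA myofibers. The HIF1dPA H3K27me3 lists held only 474, 493 and 496 autosomal peaks, against 2342 to 4023 in the other mutant H3K27me3 lists. They enter the tests below. With mark labels permuted within each of the 4 genotypes (160000 arrangements), the marks differed in the same direction as in wild-type in promoter share (-34.1 points on average), distal intergenic share (27.3 points), peaks of 3 kb or more (2.30 points), Zfp share (15.6 points), lineage factor share (-20.2 points) and vomeronasal share (5.35 points). The exact permutation p was 1.25e-05 for each, the smallest possible, and the adjusted p over 11 measures was 2.29e-05, with the same sign in 4 of 4 genotypes. The 4 genotypes include the wild-type lists. The gene lists behind the last 3 shares were chosen with earlier results of these data known, so their p-values are not independent support. Intron share (4.56 points, adjusted p = 0.000295), median width (log2 -0.23, adjusted p = 0.000327) and the share of peaks within 10 kb of another (-12.3 points, adjusted p = 0.0246) also differed by the exact test, the last 2 with the same sign in 3 of 4 genotypes. HIF1dPA was the exception for both. Peak number (adjusted p = 0.0941) and covered length (adjusted p = 0.224) missed 0.05 in the same exact test. With the mutant genotypes pooled, no measure of the 11 passed 0.05 for a mark difference in wild-type unlike that in mutant lists (48400 arrangements, exact adjusted p of at least 0.0602). The nearest were the vomeronasal share, with a mark difference of 8.49 points in wild-type and 4.31 in mutants (exact p = 0.00548, adjusted p = 0.0602), and the Zfp share, with 13.04 and 16.4 points (exact p = 0.0396, adjusted p = 0.218). Both passed 0.05 when peaks within 1000 bp were joined (adjusted exact p = 0.0301 for each), and the alternative was chosen after the data were seen.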

How the data were processed

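Per the submitters' processing notes, reads were aligned to mm10 with BWA 0.7.5 and peaks called with MACS, whose version is not given in the sources used here, and deepTools 3.5.0 was named without a role. The authors deposited 1 annotated peak list per library, whose score is 10 times the −log10 of the caller's p-value, from 50 to 3100, the latter perhaps a ceiling. Whether peaks were called on each library against the input is not given in the sources used here.

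Peaks on chromosomes 1 to 19 were kept as deposited, with no filter. Regions were peaks of the 6 lists merged at any overlap. A gene has a peak where the lists assign one. The named genes are, for each mark, the 10 (predicted genes aside) with a peak in all 3 of its lists and none of the other, ordered by the mean percentile of the strongest score, with the 5 longest such regions, up to 10 genes with peaks in at least 2 lists of both marks, and the leading members of gene lists. Measures were compared over libraries by exact two-sided permutation tests, with Benjamini-Hochberg adjustment for the 11 measures tested over the series. Members and lists were chosen with earlier results of these data known. Sim1 and Sim2 were moved from the homeobox to the bHLH list after values were seen. Sequences are from RefSeq tables on GRCm38.p6. Promoter windows on chromosome 18 were not analysed here. Alternatives were a score of at least 100, equal numbers of peaks, joined peaks, promoter peaks only, a replicate block and leaving out each library. The scripts were tested on simulated lists. The work ran in Python 3.11.15 with pandas 2.3.3 and numpy 2.4.6, and plots were drawn in matplotlib 3.10.9. The study's methods describe the 3 libraries of a mark as biological replicates from separate mice. Whether both marks came from the same mice is not given in the sources used here.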

Additional observations from a re-analysis of the deposited data

Results flagged for a closer look

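Peaks on the sex chromosomes lie outside the autosomal comparison and exceeded the limit that a count of 0 allows. The X chromosome held on average 24.3% of the peaks of the wild-type H3K9me3 lists (694, 754 and 762 peaks) and 0.260% of those of H3K27me3 (13, 10 and 5 peaks). In the H3K9me3 lists 124 X-linked genes had a peak in all 3, led by Spin2f with 89 peaks over the 3 lists, Btbd35f6 with 62 and Btbd35f29 with 60, and 9.17% ± 0.343 of the X peaks (SD, n = 3 lists) lay at promoters. The Y chromosome held on average 0.540% of H3K9me3 peaks. The labels do not give sex, and the source of the difference was not tested. Groups of 3 libraries were not searched for outlying samples.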

How the results depend on the processing

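Of 132 alternative values of 13 tested results, 130 kept their direction. Many of these could not turn. The replicate block repeats the main difference of means, and leaving out 1 library cannot reverse groups that do not overlap. Only the other alternatives bear on direction. At a score of at least 100 the median width turned (log2 0.10 for H3K9me3 minus H3K27me3), and over the series it turned to 0.17, while the difference in peaks within 10 kb of another shrank to -4.92 points (exact permutation, adjusted p = 0.451). With peaks within 1000 bp joined, the share of peaks of 3 kb or more turned to -1.21 points, and over the series to -0.48, and the difference between wild-type and mutant lists became -4.45 points for Zfp genes and 4.55 points for vomeronasal genes (exact permutation, adjusted p = 0.0301 for both). Alternatives over the series were chosen after seeing the data. What caused these changes was not tested. Counts moved by construction with fewer peaks or lists: at a score of at least 100, exclusive regions numbered 89 for H3K9me3 and 124 for H3K27me3, and exclusive genes 78 and 158. With promoter peaks only, H3K9me3 genes numbered 82, and with the same number of strongest peaks, H3K27me3 genes numbered 450. Leaving out 1 library at a time gave 269 to 458 and 609 to 1032 regions and 363 to 502 and 696 to 960 genes.

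Equal replicate numbers were not found to pair libraries, since deviations from the group means correlated at -0.0121, 0.0143 and -0.00246 for equal numbers and at -0.0150 to 0.0189 for unequal ones. With the replicate block the promoter difference was -34.4 points (exact sign-flip p = 0.25, the smallest that 3 pairs allow). No direction could change there, because the block mean equals the difference of means. G+C and CpG content of peaks was not run, because no genome sequence was used here. Depth is unknown, so a locus without a listed peak is not shown to lack the mark.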
